A study of Mus musculus with 24 samples.

Results

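The bone morphogenetic protein (BMP) ligands *Bmp2*, *Bmp3*, *Bmp4*, *Bmp6* and *Bmp7*, the inhibitor of DNA binding genes *Id1*, *Id2*, *Id3* and *Id4*, and the inhibitory SMAD gene *Smad6* were followed across cultured mouse glia. These 10 genes, of 24411 in the expression tables, were picked by name with measured values of WT astrocyte activation known, so that contrast is given as a description and its differences support nothing further. Bulk polyA RNA sequencing gave 21 libraries, 3 in each of 7 conditions. The study asked how astrocytes and microglia carrying the *SOD1G93A* transgene, a model of amyotrophic lateral sclerosis, compare with WT cells when quiescent and when activated.

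Astrocytes were WT or *SOD1G93A* and received either PBS (quiescent) or a mix (activated) of C1q at 400 ng/mL with the cytokines TNFα, used at 30 ng/mL, and IL-1α, used at 3 ng/mL. Microglia were WT with PBS (quiescent), WT with LPS at 50 ng/mL, or *SOD1G93A* with the same LPS dose. The transgene came from a line kept on a C57BL/6J background. Astrocytes were immunopanned at postnatal day 5 from cortex, by depleting CD45, BSL I and O4 positive cells and then selecting for HepaCAM, and were kept in serum-free medium with HBEGF at 5 ng/mL. Microglia were selected with CD11b magnetic beads from whole brain at postnatal days 7 to 10 and were kept in serum-free medium that held TGF-β2 at 2 ng/mL and IL-34 at 100 ng/mL in every microglial group. All groups were primary postnatal cultures, so none holds adult or spinal cord cells. Whether the 3 libraries of a group came from separate animals or cultures was not given in the sources used here (the paper points to a supplementary table of replicates, not used here), and p-values measure only the spread between these libraries.

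BMP ligands are secreted proteins of the TGF-β superfamily that bind paired serine/threonine kinase receptors and lead to phosphorylation of SMAD1, SMAD5 and SMAD9, which enter the nucleus with SMAD4. The ID genes are classic direct targets of this route, and their proteins bind E proteins and keep them, with their bHLH partners, off DNA. SMAD6 is an inhibitory SMAD that is itself induced by BMP signalling, and in the developing nervous system BMP signalling is known to favour astrocytes over oligodendrocytes.

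Libraries held between 2016139 and 11570122 reads over genes, with a median of 5098168. Levels below are normalized reads, on 1 scale across the 21 libraries, given in the order of replicates 1, 2 and 3. On that scale a total of 3 reads corresponded to between 1.36 and 7.28 normalized reads, depending on the library. Differences are log2 fold changes on the log2(normalized reads + 1) scale, which understates the change of genes with few reads, and come from limma with Benjamini-Hochberg adjustment over all genes tested. A gene was called at an adjusted p under 0.001 together with a change of over 2-fold. Genes with a mean under 10 in a comparison were not tested in it.

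The libraries carried the activation genes their labels call for. *C3*, a complement gene, and *Lcn2*, which encodes lipocalin-2, differed by 6.30 and 6.70 on the log2 scale between activated and quiescent WT astrocytes, and by 5.54 and 6.16 between those of *SOD1G93A* origin. *Il1a* and *Nos2*, which encode a cytokine and the inducible nitric oxide synthase, differed by 7.46 and 7.65 between LPS-treated and quiescent WT microglia. One library stood apart: *Nos2* had 325 normalized reads in replicate 3 of the *SOD1G93A* LPS microglia, against 2990 and 3087 in replicates 1 and 2 and 3230, 3667 and 3498 in the WT LPS libraries. *Il1a* in the same library was 15562, against 21884 and 22890. Differences of members between the genotypes under LPS are given with and without it, while the levels and list counts of that group include it.

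Cell type markers separated the cultures. The summed level of 12 astrocyte markers lay between 17250 and 28048 in the 12 astrocyte libraries and between 941 and 1666 in the 9 microglial libraries, with *Slc1a3* the most abundant in astrocytes, while *Gjb6* had at most 3 reads in any library. The 12 microglial markers summed to between 28777 and 77991 in microglia and to between 730 and 1721 in astrocytes. *Csf1r*, the most abundant of them in quiescent WT microglia at 15709, had 205 normalized reads in quiescent WT astrocytes.

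**Figure D1:**
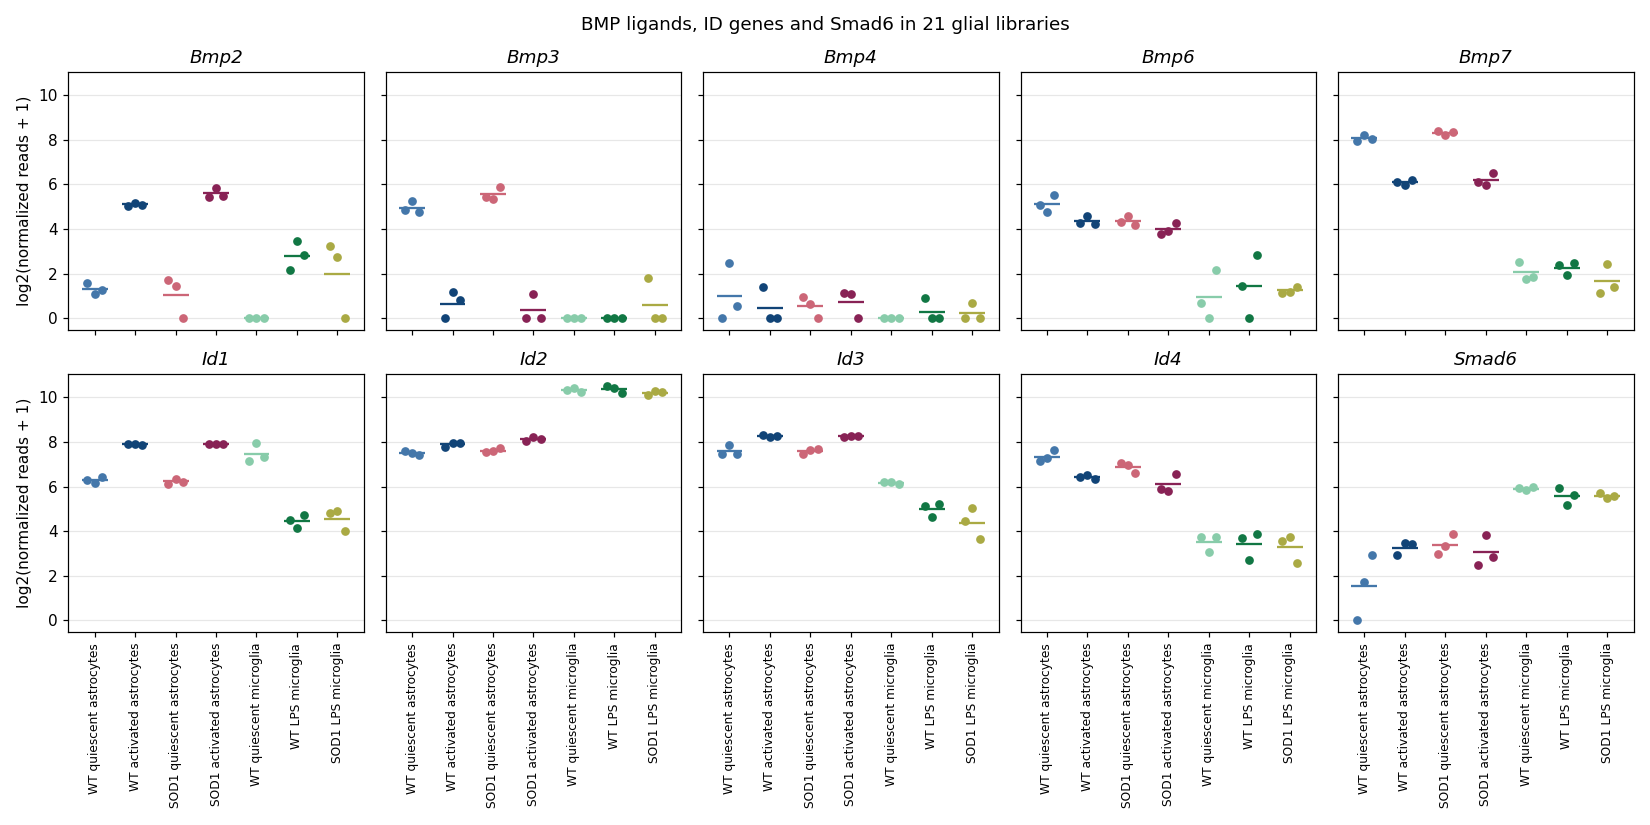
Level of each gene as log2(normalized reads + 1) on the vertical axis, with 1 point per library, 3 libraries in each of 7 conditions and a bar at the mean. Among BMP ligands *Bmp7* was highest in quiescent astrocytes, and *Id2* in the microglial libraries lay above its level in all astrocyte libraries.

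Among the ligands, *Bmp7*, which encodes a ligand of the BMP5/6/7 group, had the most reads in astrocytes. Its level was 241, 298 and 263 in quiescent WT astrocytes and 68.4, 60.7 and 72.0 in activated ones. In *SOD1G93A* astrocytes it was 337, 295 and 322 when quiescent and 67.1, 61.2 and 90.1 when activated. Every activated library lay below every quiescent library in both genotypes. In *SOD1G93A* astrocytes *Bmp7* fell by 2.11 on the log2 scale (SE 0.14, limma adjusted p = 5.73e-09), and it was lower in 3 of 3 libraries. The WT difference was -1.96. In bulk RNA, fewer cells that express a gene and less RNA of it per cell cannot be told apart.

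*Bmp3*, which encodes an atypical ligand known to oppose other BMPs, was close to undetected after activation. Quiescent WT astrocytes had 28.1, 37.7 and 25.7 normalized reads of it, and activated WT astrocytes had 0, 1.24 and 0.743. Quiescent *SOD1G93A* astrocytes had 42.5, 40.2 and 57.6, and activated ones had 0, 1.09 and 0. The groups did not overlap in either genotype, and activated libraries held 3 reads in WT and 1 read in *SOD1G93A* over the whole group, against 101 and 212 in the quiescent groups. The quiescent level exceeded the activated level 40.4-fold in WT, with a 95% counting interval of 13.4 to 199, and 100.2-fold in *SOD1G93A*, with an interval of 17.8 to 3977. On the log2 scale the differences were -5.29 (SE 0.50) in *SOD1G93A* astrocytes, lower in 3 of 3 libraries, and -4.42 in WT. The exact interval covers counting error only.

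*Bmp2*, which encodes a canonical ligand close to BMP4, moved the other way. Its level was 2.01, 1.14 and 1.43 in quiescent WT astrocytes and 31.7, 35.3 and 32.7 in activated ones. In *SOD1G93A* astrocytes it was 2.26, 1.70 and 0 when quiescent and 42.8, 56.9 and 43.0 when activated. No activated library overlapped with a quiescent one. The activated level was 23.2-fold the quiescent level in WT, from 139 against 5 reads and with an interval of 9.70 to 72.5, and 29.1-fold in *SOD1G93A*, from 110 against 8 reads and with an interval of 14.3 to 69.1. On the log2 scale the differences were 4.63 (SE 0.49) in *SOD1G93A* astrocytes, higher in 3 of 3 libraries, and 3.86 in WT. *Bmp2* and *Bmp3* passed the filter on low values only through the condition in which each was high, so they had to differ and no p is given for them.

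The other ligands gave less. *Bmp6*, the close relative of *Bmp7*, ranged from 26.3 to 45.3 in quiescent and from 17.8 to 22.9 in activated WT astrocytes, and from 17.2 to 22.6 and from 12.7 to 18.4 in the same states of *SOD1G93A* astrocytes, where the groups overlapped. Its log2 difference in *SOD1G93A* astrocytes was -0.34 (limma adjusted p = 0.385). *Bmp4*, which encodes a canonical ligand, had between 0 and 4 reads in each of the 21 libraries and was below the filter in every comparison. With no filter, its limma adjusted p outside the WT contrast lay between 0.146 and 0.972.

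Among the targets, *Id1* separated the states most clearly. It stood at 78.4, 70.8 and 84.4 normalized reads in quiescent WT astrocytes and at 237, 240.4 and 230.2 in activated ones. Quiescent *SOD1G93A* astrocytes had 69.2, 80.9 and 72.3, and activated ones 237, 238 and 238. Activated libraries were all above quiescent libraries. In *SOD1G93A* astrocytes *Id1* rose by 1.69 on the log2 scale (SE 0.12, limma adjusted p = 1.22e-08), in 3 of 3 libraries, and the WT difference was 1.61.

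*Id3* and *Id2* were also higher in activated astrocytes, but by less than 2-fold. *Id3* ranged from 174 to 205 in quiescent and from 301 to 307 in activated *SOD1G93A* astrocytes, without overlap, a difference of 0.69 (limma adjusted p = 5.37e-05, 3 of 3 libraries). *Id2* ranged from 187 to 208 and from 263 to 299.6, a difference of 0.55 (limma adjusted p = 0.000545, 3 of 3 libraries). *Id4* lay the other way, with 133, 125 and 98.0 when quiescent and 59.0, 54.7 and 94.2 when activated. Its difference of -0.78 (limma adjusted p = 0.00401) was not called, and became -1.02 and a call without replicate 3 of the activated *SOD1G93A* astrocytes. In WT astrocytes *Id3*, *Id2* and *Id4* differed by 0.69, 0.40 and -0.90.

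*Smad6* had between 0 and 16 reads in each astrocyte library and was below the filter in every comparison within astrocytes. In alternatives that tested it there, outside the WT contrast, its adjusted p lay between 0.448 and 0.969. By count, 4 of 8 members tested were called in the WT contrast, where 11.5% of all genes tested were called, and nothing is read from that count. In the *SOD1G93A* contrast 4 of 8 members tested were called, *Bmp2*, *Bmp3*, *Bmp7* and *Id1*, where 13.1% of all genes tested were called. Since *Bmp2* and *Bmp3* are among them, nothing is read from this count either. DESeq2 and edgeR each called 4 members as well. The 2 contrasts used no library in common. Since the members were picked with WT values known, how far the *SOD1G93A* p-values are independent of that choice was not tested.

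Markers of other cells differed between the same astrocyte groups. The 13 oligodendrocyte-lineage markers summed to 12410, 12399 and 12735 in quiescent and 4663, 4798 and 4605 in activated WT astrocytes, and to 14978, 13291 and 13255 against 4691, 4514 and 4940 in *SOD1G93A* astrocytes. *Olig1* was the most abundant, with a mean of 7563 in quiescent and 2241 in activated WT astrocytes. The list's calls in *SOD1G93A* astrocytes were *Olig1*, *Olig2* and *Gpr17*, 3 of 9 tested and all lower, while *Mog* had at most 2 reads in any astrocyte group. The 8 endothelial markers summed to 42.2, 41.1 and 62.9 in quiescent and 579.6, 629 and 656 in activated WT astrocytes, and to 33.5, 33.9 and 29.4 against 509, 504 and 488 in *SOD1G93A* astrocytes. After activation nearly all of that was *Flt1*, at 37.4 in quiescent and 607 in activated WT astrocytes, while *Cldn5* and *Ly6c1* had 0 reads.

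The 8 pericyte and fibroblast markers summed to 44.2, 53.7 and 85.4 in quiescent and 244, 226 and 203 in activated WT astrocytes, with *Lum* the most abundant after activation. In *SOD1G93A* astrocytes the sums were 41.6, 41.3 and 39.2 against 149, 171 and 166. The 8 neuron markers summed to 161, 166 and 156 against 282, 288 and 272 in WT. Their sums were 115, 124 and 143 against 189.8, 172 and 162 in *SOD1G93A*, with *Tubb3* the most abundant in activated *SOD1G93A* astrocytes. Only 3 of 5 neuron markers tested had higher values after activation in *SOD1G93A* astrocytes, with a median of 0.29 and 1 call. In WT all 5 tested had higher values, with a median of 0.97. Microglial markers gave 0 calls of 11 tested in *SOD1G93A* astrocytes by limma, with 10 at an unadjusted p under 0.05 (50.3% of all genes), and all 11 had lower values after activation. Their sums there were 1716, 1721 and 1129 against 1150, 802 and 877. In WT astrocytes they gave 0 calls of 11, with 0 at an unadjusted p under 0.05, and sums of 729.6, 1056 and 1418 against 909, 1496 and 815. Of 11 astrocyte markers tested in the *SOD1G93A* contrast, *Gfap* was called higher and *Aldoc* and *Fgfr3* were called lower. In the WT contrast *Hepacam*, *Aldoc* and *Fgfr3* were called lower. The part of these other cells and markers in the differences of *Bmp2*, *Bmp3*, *Bmp7* and *Id1* was not tested.

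The genotypes were then compared within a state. In quiescent astrocytes 0 of 7 members tested were called by limma, where 0% of all genes tested were called. At an unadjusted p under 0.05 there were 4 members by limma, 2 by DESeq2 and 3 by edgeR, and DESeq2 and edgeR called 0 members. Over all genes, 8.70% were at that level by limma. The 4 members were *Bmp6* at -0.77, *Bmp3* at 0.60, *Id4* at -0.45 and *Bmp7* at 0.25 on the log2 scale, with limma adjusted p-values of 0.469, 0.515, 0.484 and 0.571. *Bmp6* was lower in 3 of 3 *SOD1G93A* libraries, with 19.0, 22.6 and 17.2 normalized reads against 32.2, 26.3 and 45.3 in WT. *Bmp3* was higher in 3 of 3 and *Id4* lower in 3 of 3. Differences of *Id1*, *Id2* and *Id3* lay between -0.07 and 0.11.

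No marker was called between the quiescent genotypes by limma, but some moved with them. All 11 microglial markers tested were higher in *SOD1G93A* astrocytes, with a median of 0.57 and 5 at an unadjusted p under 0.05. Of the other lists, 4 of 9 oligodendrocyte-lineage, 2 of 11 astrocyte and 2 of 5 neuron markers were higher. *Gpr17* differed by -1.72, *Gfap* by -1.19 and *Tubb3* by -1.12, with limma adjusted p-values of 0.00333, 0.183 and 0.125. Their part in the differences of *Bmp3*, *Bmp6*, *Bmp7* and *Id4* was not tested.

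In activated astrocytes 0 of 7 members tested were called by limma, where 0.645% of all genes tested were called. Fitted without a variance trend, limma called 0.00827% of all genes there. At an unadjusted p under 0.05 there were 2 members by limma, 1 by DESeq2 and 3 by edgeR, and both of these tools called 0. Over all genes, 20.4% were at that level by limma. The limma members were *Bmp2* at 0.50 (adjusted p = 0.149) and *Id2* at 0.26 (adjusted p = 0.0816), each higher in 3 of 3 *SOD1G93A* libraries. *Bmp6*, *Bmp7* and *Id4* differed by -0.36, 0.11 and -0.32, and *Id1* and *Id3* by 0.019 and -0.0069. Of the marker lists, 1 of 5 neuron markers tested was called here, *Dcx* at -1.13, and all 5 were lower in *SOD1G93A* astrocytes, with a median of -0.97. At an adjusted p under 0.05 by limma there were 3 of these 5, 6 of 10 astrocyte markers and 3 of 9 oligodendrocyte-lineage markers, against 7.27% of all genes. *Sox10* differed by -0.90 and *Pdgfra* by -0.57, but *Mbp* by 0.71. Of the 9 oligodendrocyte-lineage markers 6 were higher in *SOD1G93A* astrocytes, with a median of 0.06. The part of these markers in the result was not tested.

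The difference in response to the cytokines between genotypes was fitted as an interaction over the 12 astrocyte libraries. It subtracts the WT difference, whose values were known when the members were picked, and is given as a description. It gave 0 of 8 members called by limma, DESeq2 and edgeR, where 0% of all genes tested were called by limma, and 0 members at an unadjusted p under 0.05 by any of these tools, against 8.29% of all genes by limma. The largest interaction terms were -0.91 for *Bmp3* (95% interval -2.23 to 0.40) and 0.80 for *Bmp2* (-0.42 to 2.01), both of which passed the filter through 1 state only. Over the alternatives they ran from -1.29 to -0.30 and from 0.25 to 1.14. The interval for *Id1*, from -0.21 to 0.39, was narrower. Among markers, 0 of 11 microglial, 8 of 11 astrocyte and 2 of 5 neuron terms were above 0, and the microglial median was -0.66. In these lists 3, 5 and 4 markers were at an unadjusted p under 0.05 by limma, and their part was not tested. A p that misses the threshold does not show that the genotypes responded alike.

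**Figure D2:**
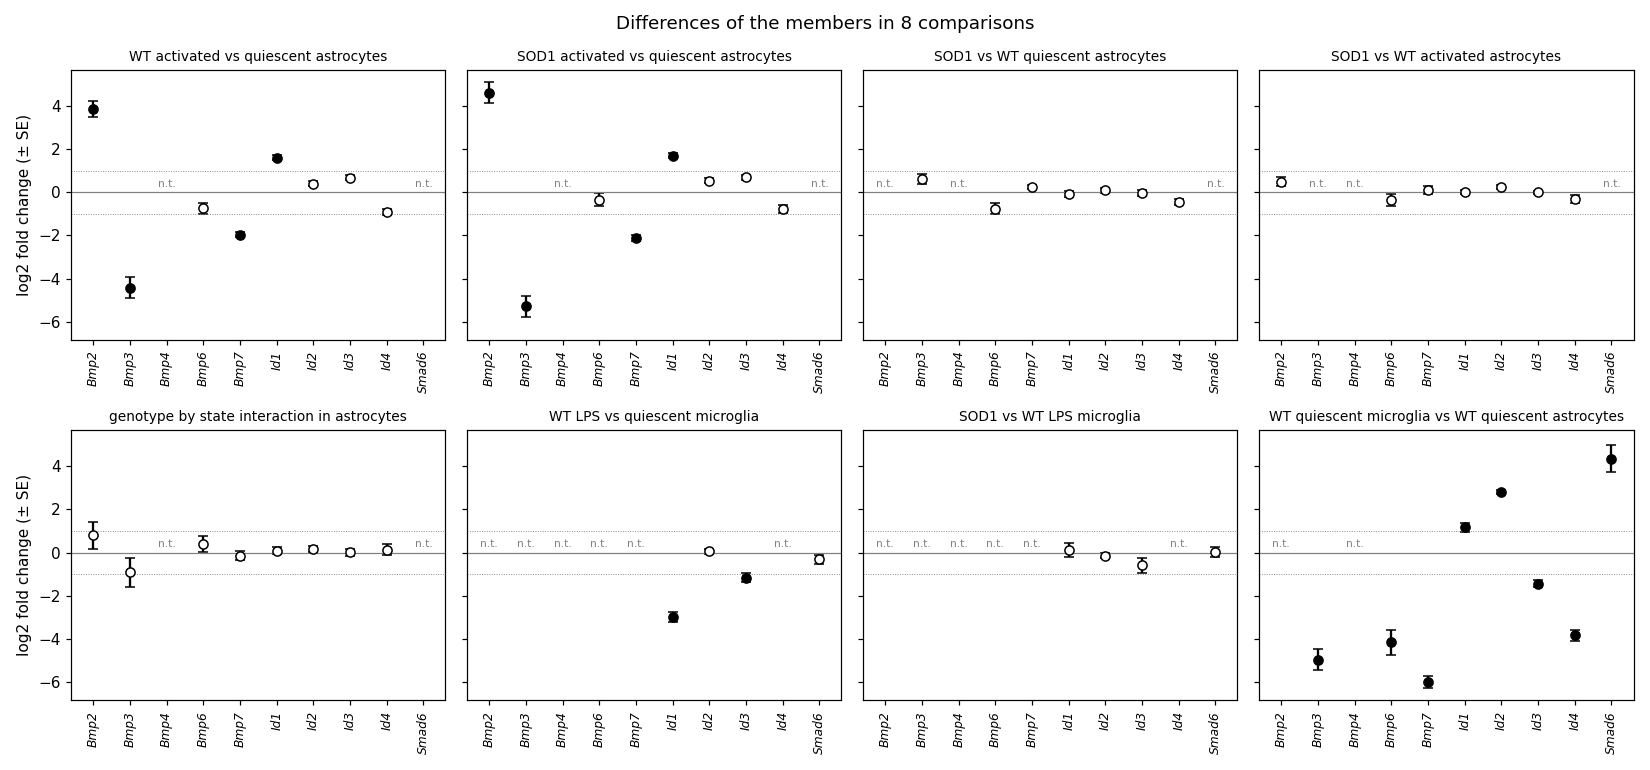
Log2 fold change with its SE for each gene in 8 comparisons, 3 libraries in each group. Filled points passed an adjusted p under 0.001 and a change of over 2-fold, open points did not, and n.t. marks genes below the filter on low values. In *SOD1G93A* astrocytes *Bmp3* was at -5.29 and *Bmp2* at 4.63, and in LPS-treated WT microglia *Id1* was at -2.99.

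Of the 4 members tested between LPS-treated and quiescent WT microglia, *Id1* differed most. *Id1* stood at 141, 245 and 157 normalized reads in quiescent WT microglia and at 21.4, 16.9 and 25.8 after LPS, without overlap. It fell by 2.99 on the log2 scale (SE 0.24, limma adjusted p = 1.75e-06), in 3 of 3 libraries. *Id3* stood at 71.9, 72.8 and 67.6 and at 33.4, 23.9 and 36.4, again without overlap. It fell by 1.17 (SE 0.20, limma adjusted p = 0.000534), in 3 of 3 libraries. The *Id3* call was lost, with a difference of -1.16, -1.14 and -1.20, without replicate 1, 2 or 3 of the quiescent microglia, and with a difference of -1.001 without replicate 2 of the LPS microglia. It was also lost, at -1.17, with a replicate block and with no filter on low values.

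*Id2* did not follow. Its level was 1279, 1353 and 1191 in quiescent and 1462, 1359 and 1156 in LPS-treated WT microglia, and the groups overlapped, with a difference of 0.06 (limma adjusted p = 0.67). *Smad6* was 59.4, 55.8 and 61.4 against 60.9, 35.1 and 48.5, which also overlapped, with a difference of -0.31 (limma adjusted p = 0.226). In all, 2 of 4 members tested were called, where 20.8% of all genes tested were called. *Id1* was higher in activated astrocytes and lower in LPS-treated microglia. The agents, the media and the cells differ between these contrasts, and the difference between them was not tested.

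Ligand transcripts were scarce in microglia. *Bmp2* had 0 reads in all quiescent WT libraries and 3.43, 9.84 and 6.06 normalized reads, from 15 reads in all, after LPS, at least 6.37-fold higher against a floor of 3 reads over the group. It was below the filter, and with no filter it was called against that group of 0 reads, which is not read as support. *Bmp3* had 0 reads in 5 of the WT and *SOD1G93A* LPS libraries and 2 reads in 1. *Bmp6* had between 0 and 4 reads, *Bmp7* between 1 and 8 and *Id4* between 3 and 21 in each microglial library.

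The 12 microglial markers moved with the LPS contrast. Their sums were 72834, 77991 and 72267 in quiescent and 29722, 29019 and 28777 in LPS-treated WT microglia. Of 12 tested, 8 were called and all of these fell, *Tmem119* by 4.62 and *Csf1r* by 1.55 among them, and none was at 0 reads. The oligodendrocyte-lineage list, whose most abundant gene there was *Cspg4*, went from 7975, 8334 and 8305 to 763, 779 and 821. Most of that sum was *Cspg4*, with a mean of 7504 against 464. Of 5 tested in the list, 2 were called lower, while 3 had higher values after LPS, with a median of 0.10. Among endothelial markers all 3 tested were called, *Pecam1* rising by 4.17, *Kdr* rising by 1.01 and *Flt1* falling by 3.47. Of 9 astrocyte markers tested, 2 were called higher, *Gja1* by 2.72 and *Slc1a2* by 2.28. *Pecam1*, at a mean of 105 after LPS, passed the filter only through the LPS group, so its call is not read as support. Sums for endothelial markers were 405, 466 and 458 against 317, 401 and 359, those for pericytes and fibroblasts 75.4, 38.8 and 35.1 against 151, 159 and 129, and those for neurons 33.3, 24.3 and 24.6 against 28.3, 23.9 and 33.3. The part of these markers in the differences of *Id1* and *Id3* was not tested.

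Between *SOD1G93A* and WT microglia under LPS, 0 of 4 members tested were called by limma, DESeq2 and edgeR, where 0% of all genes tested were called by limma, and 0 members were at an unadjusted p under 0.05 by any of them. *Id1* was 26.8, 28.7 and 15.02 in *SOD1G93A* libraries and *Id3* was 20.7, 31.8 and 11.7, so both overlapped with the WT libraries. Differences were 0.11 for *Id1*, -0.15 for *Id2*, -0.60 for *Id3* and 0.011 for *Smad6*. Without replicate 3 of the *SOD1G93A* LPS microglia they were 0.37, -0.17, -0.26 and 0.00074, and 0 members were called. The microglial markers summed to 40728 in that library and to 32453 and 31735 in replicates 1 and 2, against 29722, 29019 and 28777 in the WT LPS libraries. In this contrast 11 of 12 microglial markers were higher in *SOD1G93A* libraries, with a median of 0.29. By limma 3 were at an unadjusted p under 0.05 and 0 were called, and their part was not tested. Microglia of this genotype without LPS were not analysed here.

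Quiescent WT microglia were also set against quiescent WT astrocytes. Cell type, brain region, age, isolation and medium changed together between these groups and cannot be told apart. The 8 members tested were all called, where 47.2% of all genes tested were called. *Bmp3*, *Bmp6*, *Bmp7* and *Smad6* passed the filter only through the cell type in which each was high, and *Id4*, with a mean of 10.7 in microglia, nearly so. Nothing is read from that count, and no p is given for these genes. *Id2* was 2.81 higher in microglia on the log2 scale (limma adjusted p = 1.33e-09), at 1279, 1353 and 1191 against 193, 178 and 171 normalized reads. *Smad6* was 4.35 higher, at 59.4, 55.8 and 61.4 against 0, 2.28 and 6.68. Neither gene overlapped between the cell types.

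*Bmp7*, with between 1 and 8 reads in each quiescent microglial library, was lower in microglia by 6.01, *Id4* by 3.83 and *Id3* by 1.44 (limma adjusted p = 7.08e-06), each in 3 of 3 libraries. These differences are -6.01, -3.83 and -1.44 as microglia minus astrocytes, with -4.17 for *Bmp6* and -4.96 for *Bmp3*. *Bmp3* had 0 reads in quiescent microglia and 101 in quiescent astrocytes, at least 31.4-fold lower in microglia. *Id1* was 1.17 higher in microglia (limma adjusted p = 0.000317), at 141, 245 and 157 against 78.4, 70.8 and 84.4. Scaled by library totals instead, as CPM, its level was 23.4, 39.6 and 25.8 against 19.3, 17.04 and 19.1, which is less than 2-fold between the means. The *Id1* call was lost without replicate 2 or 3 of the microglia, at 0.93 and 1.25, and without replicate 2 of the astrocytes, at 1.10. It was also lost, at 1.17, by limma fitted without a variance trend. Astrocyte markers were lower in microglia in 10 of 10 tested and microglial markers higher in 12 of 12, and the part of cells of the other type in these results was not tested.

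Levels of different genes were compared per kilobase of annotated exon. In quiescent WT astrocytes *Id3* led with 109 ± 18.3 normalized reads per kilobase (SD, n = 3), ahead of *Id2* at 74.2 ± 4.56, *Id1* at 67.1 ± 5.86, *Bmp7* at 66.6 ± 7.15 and *Id4* at 42.2 ± 7.74. *Id2*, *Id1* and *Bmp7* differed by less than their summed spread, as did *Smad6*, *Bmp4* and *Bmp2* at the low end. *Bmp6* and *Bmp3* lay between these at 8.87 ± 2.50 and 4.13 ± 0.855. After activation of WT astrocytes *Id1* led with 203 ± 4.47, above *Id3* at 172 ± 5.33 and *Id2* at 96.8 ± 6.24, with *Id4* at 22.02 ± 1.53 and *Bmp7* at 16.7 ± 1.44.

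The order in *SOD1G93A* astrocytes opened with *Id3*, *Id2*, *Bmp7* and *Id1* when quiescent and with *Id1*, *Id3*, *Id2* and *Bmp7* when activated. *Id2* and *Bmp7* when quiescent, at 80.1 ± 4.68 and 79.1 ± 5.32, and *Bmp7* and *Id4* when activated, at 18.1 ± 3.80 and 18.01 ± 5.64, differed by less than their spread. In quiescent WT microglia *Id2* led with 523 ± 33.4, above *Id1* at 156 ± 48.1, *Id3* at 39.5 ± 1.55 and *Smad6* at 18.4 ± 0.890. After LPS *Id2* was at 544 ± 64.0 in WT microglia, and *Id1*, *Id3* and *Smad6* at 18.4 ± 3.83, 17.4 ± 3.64 and 15.03 ± 4.02 differed by less than their spread. In *SOD1G93A* LPS microglia *Id2* was at 485 ± 27.2 and *Id1* at 20.3 ± 6.40. By level per kilobase, *Id2* stood at percentile 96.6 of 14468 genes with a read in quiescent WT microglia, and *Id1* at percentile 93.9 of 15707 in activated WT astrocytes.

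The genes most like each member except *Bmp4* and *Smad6* were found by Pearson's r over the 12 astrocyte libraries. This search, n = 12 among 12279 genes, is a description with no test. These libraries fall into quiescent and activated groups, which the r values share. *Id1* was closest to *Rnd1* (0.997) and *Cebpb* (0.997), and *Bmp2* to *Lhfpl2* (0.996) and *Psd3* (0.990). *Bmp7* was closest to *Fam212b* (0.993) and to *Olig1* (0.993), a gene of the oligodendrocyte lineage, and *Bmp3* to *Serinc5* (0.992) and *Tipin* (0.991). *Id3* was closest to *Cdc34* (0.986) and *Psrc1* (0.985), *Id2* to *Lamp2* (0.971) and *1810011O10Rik* (0.970), *Id4* to *Hnrnpl* (0.959) and *Ints4* (0.959), and *Bmp6* to *Cherp* (0.931) and *Ppm1g* (0.930).

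The rest of the pathway was taken as lists. Of 10 other BMP ligands only *Gdf6* was tested in activated against quiescent *SOD1G93A* astrocytes, at 1.16, and was not called. In that contrast 13.1% of all genes tested were called. Of 10 receptors and co-receptors tested there, 2 were called higher and 1 lower, with a median of -0.11 against -0.0022 over all genes tested. At an adjusted p under 0.05 by limma there were 6 of these 10, against 43.1% of all genes. *Tgfbr3*, which encodes betaglycan, rose by 2.64 and *Acvr1*, a type I receptor, by 1.19, while *Bmpr1b*, also a type I receptor, fell by 1.94 (limma adjusted p = 1.64e-08). Of 8 extracellular antagonists tested, 2 were called higher and 0 lower, and 4 were at an adjusted p under 0.05 by limma. *Fst*, which encodes follistatin, rose by 4.26 and *Fstl1* by 2.45 (limma adjusted p = 5.77e-11). *Tgfbr3* and *Fst* had means of 9.50 and 3.01 when quiescent and passed the filter only through the activated group, so no p is given for them and these counts are not read as support.

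Of 10 SMADs and intracellular regulators, 1 was called in *SOD1G93A* astrocytes, where 13.1% of all genes were: *Smad5*, a receptor-regulated SMAD, fell by 1.22 (limma adjusted p = 1.21e-08). Of 2 other target genes tested, *Atoh8* rose by 2.11 (limma adjusted p = 1.72e-06). None of 3 E proteins was called by limma, with 2 at an unadjusted p under 0.05, as were 50.3% of all genes. Of 7 genes of the TGF-β branch, *Smad3* rose by 1.84, and the list's median was 0.39. In the WT contrast the calls were *Bmpr1b* at -1.81, *Tgfbr3* at 2.61, *Fst* at 5.35, *Fstl1* at 2.65, *Bmper* at 1.14, *Smad5* at -1.12, *Atoh8* at 2.31 and *Smad3* at 1.70.

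The 7 lists gave 0 calls by limma in the genotype contrasts and the interaction. At an unadjusted p under 0.05 there were 1 receptor, 1 other target and 1 E protein in quiescent astrocytes, 1 receptor, 3 antagonists and 1 TGF-β gene in activated astrocytes, 1 antagonist for the interaction, and 2 receptors and 2 TGF-β genes in LPS-treated microglia. The shares of all genes at that level were 8.70%, 20.4%, 8.29% and 8.71% in the same order. At an adjusted p under 0.05 by limma there were 2 antagonists and 1 TGF-β gene in activated astrocytes, against 7.27% of all genes. DESeq2 and edgeR counts for these lists were not taken.

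Under LPS 20.8% of all genes tested were called. Of 9 SMADs and regulators tested, 3 were called lower. These were *Ski*, lower by 1.83, *Bambi* by 1.64 and *Smad7*, the other inhibitory SMAD, by 1.59. Their limma adjusted p-values were 4.87e-08, 0.000439 and 4.68e-07. Of 7 TGF-β genes, 2 were called lower, *Tgfbr1* by 2.45 and *Tgfbr2* by 2.19, and *Tgfb2* was called higher by 3.64. Of 8 receptors tested, only *Eng*, which encodes endoglin, was called, higher by 1.23. None of 3 antagonists, 1 other target and 3 E proteins tested was called by limma, with 1, 1 and 3 at an unadjusted p under 0.05, a level that 61.6% of all genes reached, and no other BMP ligand passed the filter.

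Between the cell types, where 47.2% of all genes tested were called, 4 of 10 receptors and co-receptors were called higher in microglia and 4 were called lower. *Acvrl1* and *Eng* were 6.07 and 5.21 higher, *Rgmb* 1.60 and *Acvr1* 1.43 higher, and *Bmpr1b* and *Rgma* differed by -6.29 and -5.42. Of 6 antagonists 4 were called lower, *Chrdl1* at -4.91, *Nbl1* at -4.26, *Bmper* at -3.08 and *Fstl1* at -2.46. Of 10 SMADs and regulators 4 were called higher, *Smad7* at 4.48, *Skil* at 2.80, *Ski* at 2.33 and *Smurf1* at 1.71. In the same list 2 were called lower, *Smad9* at -3.78 and *Smad5* at -2.84. *Hey1* differed by -3.34, and the E proteins *Tcf12*, *Tcf3* and *Tcf4* by -1.40, -1.33 and -1.33. Of 7 TGF-β genes 3 were called higher, *Tgfb1* at 5.67, *Tgfbr2* at 4.87 and *Tgfbr1* at 4.28, while *Tgfb2* was called lower at -3.44. The median over all 12132 genes tested was -0.08. *Acvrl1*, *Bmpr1b*, *Chrdl1*, *Nbl1*, *Bmper* and *Smad9* passed the filter only through the cell type in which each was high, so these counts are not read as support.

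Per kilobase, the highest gene of each list in quiescent WT astrocytes was *Gdf6* at 1.88 among other ligands, *Rgma* at 191 among receptors and co-receptors, *Nbl1* at 84.5 among antagonists, *Smad5* at 268 among SMADs, *Hey1* at 77.7 among targets, *Tcf3* at 256 among E proteins and *Smad3* at 54.4 in the TGF-β branch. In quiescent WT microglia it was *Gdf6* at 0.139, *Eng* at 98.7, *Twsg1* at 58.8, *Ski* at 980.4, *Hey1* at 7.42, *Tcf3* at 101 and *Tgfbr1* at 1007.

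By the GENCODE M21 annotation of GRCm38, *Bmp2* lies at chr2:133552159-133562885, *Id1* at chr2:152736251-152737410 and *Bmp7* at chr2:172868012-172940321, all on chromosome 2. *Bmp3* lies at chr5:98854415-98884396, *Bmp4* at chr14:46383520-46390669, *Id2* at chr12:25093799-25097140, *Id3* at chr4:136143497-136145755 and *Smad6* at chr9:63953076-64022059. *Bmp6* at chr13:38345107-38500302 and *Id4* at chr13:48261228-48266026 share chromosome 13. Exons on the opposite strand overlap *Bmp4* (*Gm15217*), *Bmp6* (*Txndc5*) and *Id4* (*A330033J07Rik* and *Gm49291*). The library kit keeps strand, but the strand setting of the counting was not given in the sources used here (the paper points to a published pipeline, not used here), so reads of these 3 genes may include those of their partners.

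Promoters of 6 members, *Bmp4*, *Bmp6*, *Id2*, *Id3*, *Id4* and *Smad6*, were matched in RefSeq (GRCm38.p6), and the 250 bases before each start were searched on both strands. GGCGCC, a GC-rich element known to bind SMAD1 and SMAD5, was found once each in *Id2* and *Id4* and in 9.59% of 32851 promoters. CAGAC, the SMAD box, was found in *Id3* and *Bmp6* and in 42.2% of promoters, and the E-box CANNTG in *Bmp4*, *Bmp6* and *Id2* and in 66.2%. The windows of *Id3* and *Bmp6* lay wholly, and that of *Id2* in part, within annotated exons of the same gene. The *Id4* window, chr13:48260866-48261115 on the plus strand, has a GC content of 75.6% and is shown because it holds the GC-rich element outside annotated exons of its own gene, with the element in capitals.
Id4: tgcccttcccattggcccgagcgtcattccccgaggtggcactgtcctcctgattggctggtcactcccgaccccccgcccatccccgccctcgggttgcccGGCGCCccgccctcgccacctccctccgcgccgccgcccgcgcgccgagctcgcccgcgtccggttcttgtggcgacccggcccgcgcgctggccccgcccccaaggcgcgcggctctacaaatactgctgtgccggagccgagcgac
A match is a description of the letters and not a site.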

How the data were processed

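The authors prepared strand-specific polyA libraries, aligned paired reads to mm10 with STAR, counted them per gene with RSEM and normalized them with DESeq2. The deposited signal in 6 tables is this normalized count per gene and library, scaled within each table. Whole reads were recovered from 100% of values within a tolerance of 0.05 and put on 1 scale by median-ratio size factors where a comparison crossed tables. Columns with the authors' own fold changes and p-values were not used. Of 24 libraries, the 3 of *SOD1G93A* microglia without LPS were not analysed here.

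Differences were fitted with limma 3.58.1 (R 4.3.3, trended variance) on log2(normalized count + 1), for genes with a mean of at least 10. DESeq2 1.42.0 and edgeR 4.0.16 on the recovered reads served as alternatives, beside other pseudocounts, filters, scalings, a replicate block and leaving out each library. Other steps ran in Python 3.11.15 with scipy 1.17.1. The 3 fits were tested on simulated data with known changes. Named genes are the members, the called genes of each pathway list (at most 6 by size), the highest of each list per cell type, the 2 closest patterns, and markers that were called, most abundant or at 0. One gene of the TGF-β list is not reported here. Members and lists were chosen with earlier results of these data known. The p-values of list genes are therefore given as a description. How far those of members, in any contrast, are independent of that choice was not tested. Replicate pairs differed by more than read sampling alone, as chi-square over its degrees of freedom ran from 1.48 to 20.3. Intervals and floors cover counting error only.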

Additional observations from a re-analysis of the deposited data

How the results depend on the processing

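The 54 member differences were given 901 alternative values. Calls were lost in 13 of these, of which *Id3* in LPS-treated microglia and *Id1* between cell types account for most, and *Bmp3* in WT astrocytes (-4.26 without replicate 2 of the quiescent astrocytes), *Bmp6* and *Smad6* between cell types for the rest. The *Bmp6* call was lost by quantile normalization, at -3.03, and the *Smad6* call by limma fitted without a variance trend, at 4.35. The cause was not tested.

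The number of members called in WT and *SOD1G93A* activation was 8 and 7 at an adjusted p under 0.05 at any fold change. Of all genes, 38.3% and 43.1% were at that level. The number was 2 in each where every library had to reach 10, against 10.8% and 12.2% of all genes, a filter that removes *Bmp2* and *Bmp3*. The same filter left 3 between cell types, against 39.7% of all genes. With a replicate block the counts were 4 and 4 for WT and *SOD1G93A* activation, 0 for each genotype contrast and the interaction, 8 between cell types and 1 under LPS, where the block ended the *Id3* call. With the block, 11.5% and 12.7% of all genes were called for WT and *SOD1G93A* activation, 47.8% between cell types and 20.3% under LPS. For genotype in activated astrocytes the block gave 0.827%. Deviations from the group mean correlated between -0.399 and 0.087 for same-numbered libraries of different groups. The numbers were therefore not taken to pair the libraries. Leaving out 1 library gave 1 to 2 called members under LPS, and with no filter on low values *Id3* was lost and *Bmp2* gained.

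Differences near 0 that were not called changed sign as follows, where ranges are those from leaving out 1 library. Genotype in quiescent astrocytes: *Id3* 0.12 and 0.064. Genotype in activated astrocytes: *Bmp7* -0.0493 (range -0.0493 to 0.22), *Id3* 0.018 and 0.0042 (range -0.027 to 0.018), and *Id1* -0.0031 by quantile normalization. Interaction: *Id3* -0.017 by TMM, -0.014 by quantiles and -0.13, -0.0656, -0.013 and -0.0012 (range -0.13 to 0.094), *Id4* -0.00076 and -0.11 (range -0.11 to 0.27). LPS: *Id2* -0.15 by quantiles and -0.013 (range -0.013 to 0.15). Genotype under LPS: *Id1* -0.036, -0.0045 and -0.043 (range -0.043 to 0.37), and *Smad6* -0.19 and -0.044 (range -0.19 to 0.19), with -0.0016 by quantiles, -0.0496 by DESeq2 and -0.063 by edgeR.

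Over all genes, DESeq2 called 6 for genotype in quiescent astrocytes, 22 for the interaction (edgeR 4) and 3 for genotype under LPS, where limma called 0. With reads scaled by library totals, 7 of 30 levels moved, *Id2* in quiescent microglia to 2.28 on the log2 scale relative to quiescent WT astrocytes.

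The libraries differ in depth, and genes with few reads, *Bmp4* and astrocyte *Smad6* among them, were below the filter and were tested only in some alternatives.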
